A study of Mus musculus with 16 samples.

Results

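The genes described here encode hepatocyte transporters of bile acids and other organic anions, and of the phospholipid and sterols of bile. They are the uptake carriers Slc10a1, Slco1b2, Slco1a1 and Slco1a4, the canalicular exporters Abcb11, Abcc2, Abcb4, Abcg5 and Abcg8, and the basolateral exporter Abcc3. They were chosen by gene symbol, with earlier results of these data known, and make up 10 of the 41585 genes in the count table. All 10 were among the 13470 genes that passed the filter on low counts.

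Hepatocytes take bile acids from portal blood across the sinusoidal membrane, chiefly through the sodium-dependent carrier encoded by Slc10a1, while sodium-independent carriers of the Slco family take up bilirubin, steroid conjugates and many drugs as well as bile acids. ATP-driven pumps in the canalicular membrane then secrete bile acids, conjugates, phospholipid and sterols into bile. Several of these genes are known targets of the bile acid receptor FXR, of the xenobiotic receptors CAR and PXR, or of the sex-specific pattern of growth hormone secretion.

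Liver RNA was sequenced from C57BL/6 mice of both sexes that had eaten a diet with 60% fat for 16 weeks, to ask how human CYP2B6, a drug- and fatty-acid-oxidising cytochrome P450, bears on diet-induced obesity. The 4 groups were hCYP2B6-Tg females, Cyp2b-null females, hCYP2B6-Tg males and Cyp2b-null males, with 4 libraries each. The null line lacks mouse Cyp2b genes, and the transgenic line carries human CYP2B6. Every group had the same strain and diet, and no group on a standard diet is analysed here. The labels used here give neither the age of the mice, nor the promoter that drives the transgene, nor which mouse Cyp2b genes each line retains. They also do not say in so many words that each library came from a separate mouse, so p-values measure the spread between libraries, which may be partly technical. Libraries are named by group and by the number in their title.

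Library totals ran from 5584587 to 9672708 counts, and a gene with no reads could still have had 0.310 to 0.537 CPM, depending on the library, taking 3 counts as the limit for counting error. CPM values are read counts divided by the TMM-scaled library total. Added together, the mouse genes Cyp2b10, Cyp2b19 and Cyp2b23 had 9 to 26 counts in hCYP2B6-Tg females and 0 to 1 in Cyp2b-null females, and 6 to 50 in hCYP2B6-Tg males and 0 to 1 in Cyp2b-null males. Whether reads of human CYP2B6 were counted under these mouse genes was not tested. All 16 libraries matched their labelled sex, and the summed level of 6 hepatocyte markers was 95581 to 127852 CPM in every library. Some libraries stood apart. In Cyp2b-null male 4 the 8 cholangiocyte markers summed to 210 CPM, against 77.6 to 117 CPM in the other Cyp2b-null males. The fat cell list summed to 43.8 CPM in hCYP2B6-Tg male 4, against 8.40 to 18.5 CPM in the other hCYP2B6-Tg males, with Adipoq, Plin1, Lep and Retn at 0 in that group. In whole liver, fewer cells that express a gene and less RNA per cell cannot be told apart.

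Per kilobase of annotated exons, the 2 main bile acid and anion uptake carriers were the most abundant of the transporters in all 4 groups. On this scale Slc10a1 stood at 357 ± 35.9, 326 ± 34.3, 398 ± 53.2 and 340 ± 18.7 CPM per kilobase in hCYP2B6-Tg females, Cyp2b-null females, hCYP2B6-Tg males and Cyp2b-null males (mean ± SD, n = 4 each). Slco1b2 stood at 314 ± 42.6, 300 ± 20.6, 367 ± 12.8 and 377 ± 19.03 CPM per kilobase in the same groups. The libraries of these neighbours overlapped in each group, and with coding length in place of exon length Slco1b2 ranked above Slc10a1 in every group.

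Abcb11, the bile salt export pump, came next after these carriers in every group, with group means of 121 to 156 CPM per kilobase. The canalicular anion pump Abcc2 averaged 51.4 to 60.0 and the basolateral pump Abcc3 44.6 to 54.2 CPM per kilobase. The libraries of these 2 genes overlapped in every group except hCYP2B6-Tg females, where Abcc2 lay at 53.1 to 54.3 and Abcc3 at 45.4 to 52.8 CPM per kilobase. Abcb4, Abcg5 and Abcg8 followed at group means of 28.4 to 36.2 CPM per kilobase, within each other's spread in each group.

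The remaining Slco genes changed places with sex. Slco1a1 was the lowest of the 10 in females, at 0.747 ± 0.384 CPM per kilobase in hCYP2B6-Tg and 0.631 ± 0.332 in Cyp2b-null livers, and ranked just below Abcb11 in males, at 83.9 ± 37.5 in hCYP2B6-Tg and 104 ± 26.2 in Cyp2b-null livers. Per kilobase of exons, Slco1a4 lay with Abcb4, Abcg5 and Abcg8 in females, at 29.2 ± 4.58 in hCYP2B6-Tg and 32.6 ± 7.65 in Cyp2b-null livers. It was the lowest of the 10 in males, at 14.03 ± 4.05 in hCYP2B6-Tg and 10.5 ± 2.57 CPM per kilobase in Cyp2b-null livers. Coding length in place of exon length changed several places. Slco1a4 then averaged 93.1 ± 14.6 in hCYP2B6-Tg and 104 ± 24.4 CPM per coding kilobase in Cyp2b-null females, above the means of Abcb4, Abcg5 and Abcg8, which lay at 47.2 to 77.2 and 50.3 to 70.3 in these groups. Abcc3, at 55.6 to 67.6 CPM per coding kilobase, ranked below Abcb4, at 70.3 to 82.8, in all 4 groups. In males Slco1a1 ranked above Abcb11, and in hCYP2B6-Tg males Slco1a4 ranked above Abcg5.

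**Figure D1:**
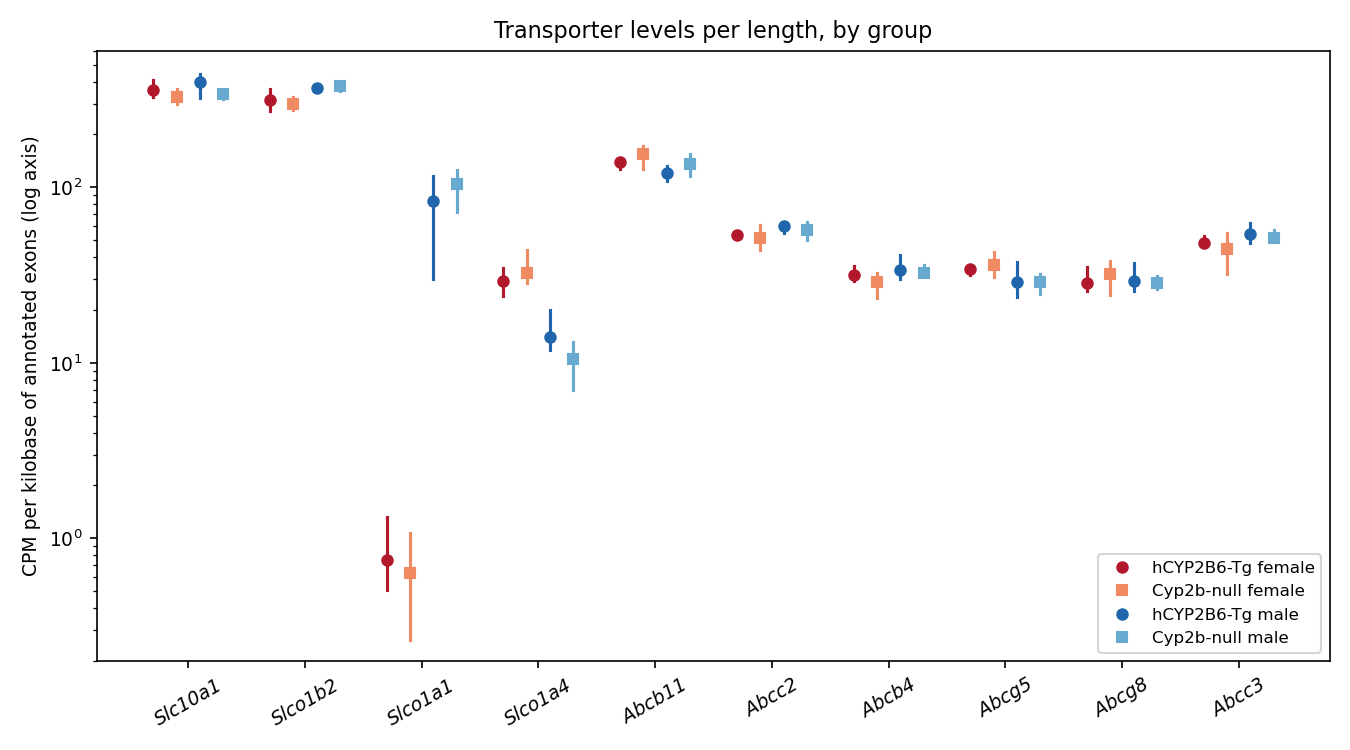
Levels of the 10 transporter genes in CPM per kilobase of annotated exons on a log axis, by group; points are means of 4 libraries and lines run over the lowest to the highest library. Slc10a1 and Slco1b2 lie highest in all groups, and the means of Slco1a1 lie at 0.631 to 0.747 in females and at 83.9 to 104 in males.

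The first comparison asked whether the human transgene changed the transporters. No transporter passed the test in either sex: 0 of 10 genes differed between hCYP2B6-Tg and Cyp2b-null females and 0 of 10 between hCYP2B6-Tg and Cyp2b-null males (edgeR quasi-likelihood test, adjusted p from 0.760 to 0.981 in females and from 0.619 to 0.991 in males). The background was equally sparse, with 0% of all 13470 genes passing in females and 0.111% in males. With both sexes averaged, 0 of 10 transporters and 0.0148% of all genes passed, and for the difference between the genotype effects of females and males 0 of 10 transporters and 0.0445% of all genes passed. DESeq2 and limma voom also called 0 transporters in each of these contrasts. At unadjusted p under 0.05 there were 0 transporters in females, 1 in males, 2 with the sexes averaged and 0 for the difference between the sexes, against 7.59%, 7.17%, 6.94% and 7.70% of all genes.

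The genotypes overlapped for every transporter in both sexes. Among all tested genes, 3.50% in females and 4.77% in males had all 4 libraries of one genotype above all 4 of the other. The median log2 fold change of the 10 genes was 0.064 in females and 0.044 in males, and that of all genes was 0.0016 in females and -0.0043 in males.

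Slc10a1, which encodes the sodium-taurocholate cotransporter NTCP, had the smallest adjusted p of the 10 genes in males. It lies at chr12:80953185-80968705 on the minus strand (GRCm38.p6, RefSeq, as are all positions given here). Its levels were 970, 929, 706 and 896 CPM in hCYP2B6-Tg males, against 718, 782, 705 and 783 CPM in Cyp2b-null males. In females they were 896, 785, 715 and 746 CPM in hCYP2B6-Tg livers, against 654, 804, 655 and 757 CPM in Cyp2b-null livers. Of the hCYP2B6-Tg males, 3 lay above every Cyp2b-null male and number 4 lay within their range. The log2 fold change was 0.23 in males (95% interval 0.03 to 0.43, adjusted p = 0.619) and 0.13 in females (-0.07 to 0.33, adjusted p = 0.807). Here and below, intervals are for single genes and are not adjusted for the number of genes tested, unlike the adjusted p-values. An interval that leaves out 0 is therefore not a call.

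Abcb11, at chr2:69238282-69342616 on the minus strand, pumps monovalent bile salts into the canaliculus, and 136 of its exonic bases overlap the antisense gene Gm13613. Its levels were 754, 733, 735 and 655 CPM in hCYP2B6-Tg females, against 833, 828, 884 and 658 CPM in Cyp2b-null females. Levels of 605, 681, 556 and 651 CPM in hCYP2B6-Tg males compared with 794, 595, 723 and 687 CPM in Cyp2b-null males. The mean was lower in hCYP2B6-Tg livers of both sexes, with libraries that overlapped. The log2 fold change averaged over the sexes was -0.16 (95% interval -0.30 to -0.02), and the adjusted p was 0.650. The adjusted p of Slc10a1 for the same average was 0.606, with a log2 fold change of 0.18 (0.04 to 0.32).

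The other transporters with little spread had narrow intervals, which are approximate. Slco1b2 had log2 fold changes of 0.06 (95% interval -0.11 to 0.24) in females and -0.04 (-0.22 to 0.14) in males. Abcc2, which exports bilirubin glucuronides and glutathione conjugates, had 0.06 (-0.13 to 0.26) in females and 0.08 (-0.12 to 0.28) in males. Intervals reached no further than -0.17 and 0.36 for Abcb4, the phosphatidylcholine floppase, over both sexes.

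The sterol exporters and Abcc3 had somewhat wider intervals. Abcg5 had log2 fold changes of -0.09 (95% interval -0.34 to 0.16) in females and 0.01 (-0.24 to 0.27) in males, and Abcg8 had -0.16 (-0.44 to 0.12) in females and 0.03 (-0.25 to 0.31) in males. Abcc3, which returns conjugates to sinusoidal blood, had 0.11 (-0.14 to 0.37) in females and 0.08 (-0.17 to 0.34) in males. None of these p-values passed, which does not show that the genotypes are alike.

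Slco1a1 and Slco1a4 were the least precisely measured. For Slco1a1 the log2 fold change was 0.18 in females (95% interval -1.33 to 1.69) and -0.31 in males (-1.10 to 0.48), and for Slco1a4 it was -0.16 in females (-0.63 to 0.31) and 0.42 in males (-0.08 to 0.91). The biological coefficient of variation was 34.1% for Slco1a1 and 19.2% for Slco1a4, against 10.4% to 13.8% for the other transporters and a median of 13.7% over all genes. The difference between the genotype effects of Slco1a4, female minus male, was -0.58 (-1.26 to 0.11) with an adjusted p of 0.709.

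**Figure D2:**
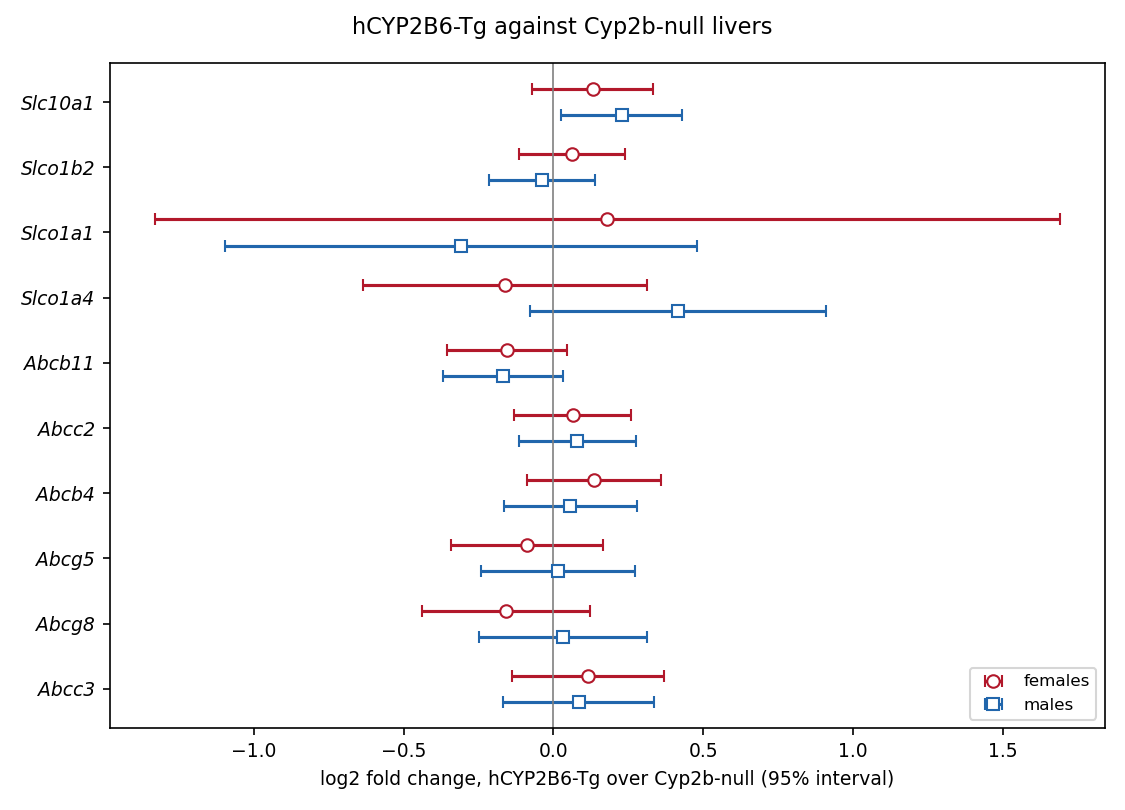
Log2 fold changes of the 10 transporters, hCYP2B6-Tg over Cyp2b-null, with 95% intervals, for females (circles) and males (squares); open symbols mark genes that did not pass an adjusted p of 0.05. All 20 symbols are open, and the widest interval, -1.33 to 1.69, belongs to Slco1a1 in females.

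The second comparison, of females with males, is the other factor of the design. Slco1a1 was far lower and Slco1a4 higher in females of both genotypes, while Slco1b2 passed the test in Cyp2b-null livers and not in hCYP2B6-Tg livers. In hCYP2B6-Tg livers 2 of 10 transporters passed (1 higher and 1 lower in females), beside 10.3% of all genes, and in Cyp2b-null livers 3 of 10 passed (1 higher and 2 lower), beside 7.52% of all genes. These counts over 10 genes are a description, and the values of each gene carry the comparison. All libraries of one sex lay above all of the other for 3 transporters in hCYP2B6-Tg livers (Slco1a1, Slco1a4 and Abcc2), beside 15.6% of all genes, and for 3 in Cyp2b-null livers (Slco1a1, Slco1a4 and Slco1b2), beside 12.3%. With all 8 females set against all 8 males, 2 of 10 (Slco1a1 and Slco1a4) had no overlap, beside 4.30% of all genes.

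Slco1a1 encodes Oatp1a1, a carrier of bile acids, steroid sulfates and other anions that is known to be male-predominant in rodent liver, and Slco1a4 encodes Oatp1a4, a carrier of bile acids and cardiac glycosides known to respond to PXR. Both lie on the minus strand of chromosome 6, Slco1a4 at chr6:141805438-141856284 and Slco1a1 at chr6:141907281-141946962, with 50997 bases between them. Slco1b2 lies on the plus strand nearby, at chr6:141629452-141686646, ending 118792 bases before Slco1a4. The 250 bases before a RefSeq transcript start are shown for these 3 neighbours because they moved differently with sex. The windows are chr6:141946963-141947212 (minus strand) for Slco1a1, chr6:141856221-141856470 (minus strand) for Slco1a4 and chr6:141629268-141629517 (plus strand) for Slco1b2. Those of Slco1a4 and Slco1b2 precede a start that lies inside the gene's annotated span, and capitals mark matches to the motifs described next.
Slco1a1: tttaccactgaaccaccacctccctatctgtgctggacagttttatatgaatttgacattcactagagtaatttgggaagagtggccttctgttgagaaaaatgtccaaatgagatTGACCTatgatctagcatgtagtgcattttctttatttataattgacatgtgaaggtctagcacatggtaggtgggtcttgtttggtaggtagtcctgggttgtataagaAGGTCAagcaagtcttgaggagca
Slco1a4: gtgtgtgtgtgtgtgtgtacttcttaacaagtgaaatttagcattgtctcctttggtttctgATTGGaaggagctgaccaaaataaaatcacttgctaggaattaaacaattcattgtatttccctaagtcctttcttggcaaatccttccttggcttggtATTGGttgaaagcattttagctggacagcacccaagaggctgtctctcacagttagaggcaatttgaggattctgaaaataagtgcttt
Slco1b2: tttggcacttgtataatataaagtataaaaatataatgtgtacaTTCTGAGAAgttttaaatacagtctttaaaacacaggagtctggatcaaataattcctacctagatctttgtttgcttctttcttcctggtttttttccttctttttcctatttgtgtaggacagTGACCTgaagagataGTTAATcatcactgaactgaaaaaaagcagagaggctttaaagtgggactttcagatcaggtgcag

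Both strands were searched for 5 motifs: the STAT5 motif TTCNNNGAA, the nuclear receptor element AGGTCA, the HNF1 element GTTAAT, the CCAAT box and the antioxidant element TGACNNNGC. The Slco1a1 window holds AGGTCA at -134 (minus strand of the gene) and at -24 (plus strand), counted to the first base of the match from the transcript start. The Slco1a4 window holds CCAAT on the minus strand at -188 and -89. The Slco1b2 window holds TTCNNNGAA at -206, AGGTCA at -81 and GTTAAT at -66. Among 32851 RefSeq windows of this length, 14% hold AGGTCA, 33.8% CCAAT, 7.02% TTCNNNGAA, 6.43% GTTAAT and 10.2% TGACNNNGC. A match is a run of letters and was not tested as a binding site.

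Slco1a1 had 2.69, 2.91, 6.96 and 3.20 CPM in hCYP2B6-Tg females, against 536, 464, 159 and 610 CPM in hCYP2B6-Tg males. Among Cyp2b-null libraries the values were 3.34, 2.96, 1.38 and 5.63 CPM in females, against 380, 665, 487 and 657 CPM in males. Every female lay far below every male, and each female library nevertheless held 12 to 54 counts, above the limit that a count of 0 allows. The log2 fold change was -6.84 ± 0.52 (SE) in hCYP2B6-Tg livers (adjusted p = 2.42e-06), a level 114-fold lower in females (95% interval 52.0 to 252). In Cyp2b-null livers it was -7.33 ± 0.54 (adjusted p = 1.35e-06), 161-fold lower in females (71.6 to 360). The difference between these sex effects is the same contrast as that between the genotype effects, 0.49 (-1.22 to 2.19, adjusted p = 0.929). The SEs and 95% intervals of Slco1a1 were back-calculated from the F test. With so large a difference and so few female counts they are approximate.

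The lowest male was hCYP2B6-Tg male 4, with 159 CPM. Without it the Slco1a1 log2 fold change in hCYP2B6-Tg livers was -7.12, and the call stood in all 29 alternatives of both genotypes. The other males of the group lay at 464 to 610 CPM.

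Slco1a4 had 223, 174, 155 and 196 CPM in hCYP2B6-Tg females, against 129, 76.0, 75.9 and 79.1 CPM in hCYP2B6-Tg males. The Cyp2b-null libraries had 183, 283, 188 and 183 CPM in females, against 83.8, 67.8, 44.8 and 73.5 CPM in males. All 8 females lay above all 8 males, hCYP2B6-Tg male 2 being the highest male and Cyp2b-null female 3 the highest female. The log2 fold change was 1.06 ± 0.23 in hCYP2B6-Tg livers (adjusted p = 0.00824), or 2.08-fold (95% interval 1.49 to 2.92), and 1.64 ± 0.23 in Cyp2b-null livers (adjusted p = 0.000408), or 3.11-fold (2.20 to 4.38). Both calls stood in all 29 alternatives.

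The opposite directions of this gene pair made their ratio a sharp divider of the sexes. In females Slco1a4 had 22.2 to 82.95 times the counts of Slco1a1 in hCYP2B6-Tg and 32.6 to 136 times in Cyp2b-null livers. In males Slco1a1 had 2.10 to 7.72 times the counts of Slco1a4 in hCYP2B6-Tg and 4.54 to 10.9 times in Cyp2b-null livers. The lowest male ratio, 2.10, was that of hCYP2B6-Tg male 4. Added together, the 2 genes had 162 to 226 CPM in hCYP2B6-Tg females against 235 to 689 CPM in hCYP2B6-Tg males, and 186 to 286 CPM in Cyp2b-null females against 464 to 733 CPM in Cyp2b-null males.

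The related Slco1a5 had 0 counts in all 16 libraries and Slco1a6 had 2. Of the 50-base windows of each transcript, 2.26% in Slco1a1 and 2.73% in Slco1a4 also occur in another gene, for Slco1a1 most often Slco1a4. Whether shared reads add to the low Slco1a1 counts of females was not tested.

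**Figure D3:**
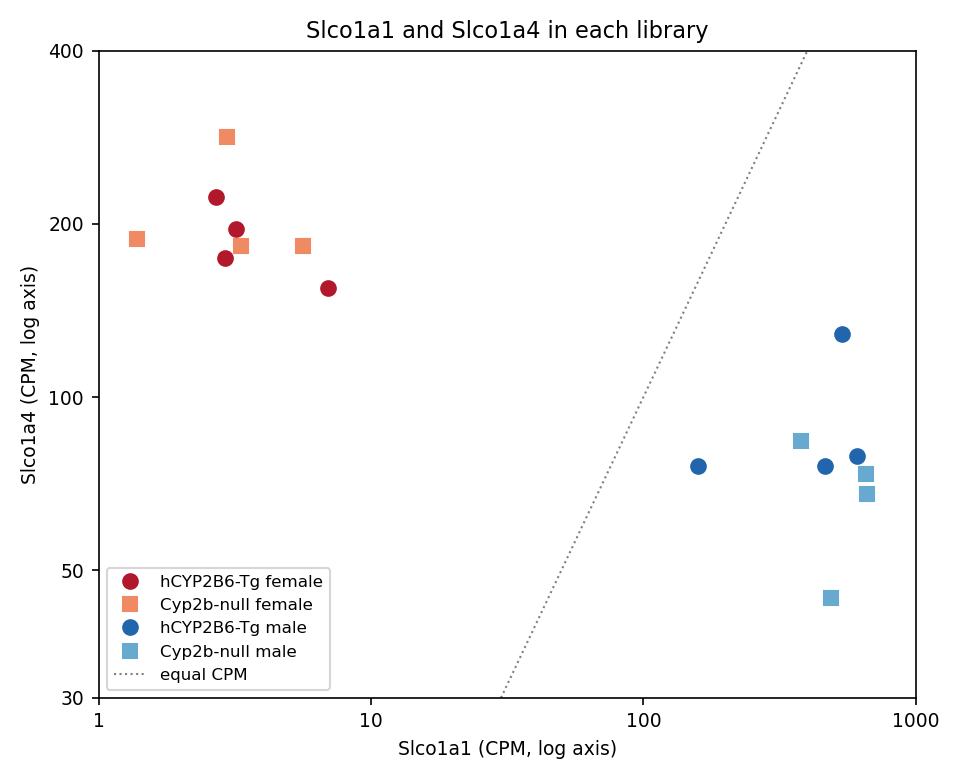
Slco1a1 against Slco1a4 in each of the 16 libraries, in CPM on log axes, with a dotted line at equal CPM. The 8 female libraries lie left of the line, with Slco1a1 at 1.38 to 6.96 CPM, and the 8 male libraries right of it, with Slco1a1 at 159 to 665 CPM and Slco1a4 at 44.8 to 129 CPM.

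Slco1b2 encodes Oatp1b2, the liver carrier of bilirubin, bile acids and statins. It had 1794, 1398, 1644 and 1348 CPM in hCYP2B6-Tg females, against 1890, 1741, 1783 and 1813 CPM in hCYP2B6-Tg males. Among the Cyp2b-null libraries it had 1476, 1612, 1466 and 1365 CPM in females, against 1744, 1900, 1822 and 1960 CPM in males. Only hCYP2B6-Tg female 1 reached the range of the males. Slco1b2 was 1.25-fold lower in Cyp2b-null females (log2 fold change -0.33 ± 0.09, adjusted p = 0.0172) and did not pass in hCYP2B6-Tg livers (-0.23 ± 0.09, adjusted p = 0.102), while the 2 effects differed by 0.10 (95% interval -0.15 to 0.35, adjusted p = 0.891).

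The Slco1b2 call in Cyp2b-null livers was a narrow one. It was lost without Cyp2b-null female 5 (adjusted p = 0.0647), without Cyp2b-null male 2 (0.0529) and without Cyp2b-null male 4 (0.068), the library with the raised cholangiocyte markers. In hCYP2B6-Tg livers a call was gained without female 1 (adjusted p = 0.0222).

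Slc10a1, the other major uptake gene, did not pass by sex. Its log2 fold change was -0.16 (95% interval -0.36 to 0.05, adjusted p = 0.355) in hCYP2B6-Tg and -0.06 (-0.26 to 0.14, adjusted p = 0.806) in Cyp2b-null livers, and the libraries of the sexes overlapped in both genotypes.

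Averaging the sex effect over both genotypes, a contrast added after the data had been seen, gave 5 of 10 transporters past the threshold, beside 17.0% of all genes. Slco1b2 was lower in females by this measure (log2 fold change -0.28, adjusted p = 0.00216), as was Slco1a1 (-7.08, adjusted p = 2.36e-08), and Slco1a4 was higher (1.35, adjusted p = 4.39e-05). These 3 calls stood in all 28 alternatives that could be run. The other calls were Abcg5, higher in females (0.28, adjusted p = 0.0259), and Abcb11, higher in females (0.20, adjusted p = 0.0461). The Abcb11 call was fragile: it stood in 4 of the 16 fits that left out 1 library (hCYP2B6-Tg female 5, Cyp2b-null female 5, hCYP2B6-Tg male 3 or Cyp2b-null male 1) and in 6 of 12 other alternatives, and DESeq2, limma voom, RLE scaling, a filter on CPM and non-robust estimation each lost it. Leaving out any of Cyp2b-null female 3, hCYP2B6-Tg male 4, hCYP2B6-Tg male 5, Cyp2b-null male 3 and Cyp2b-null male 4 reduced the count to 3 by removing Abcg5 and Abcb11. Abcg5 was also lost without hCYP2B6-Tg male 3 and stood in 10 of these 16 fits.

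**Figure D4:**
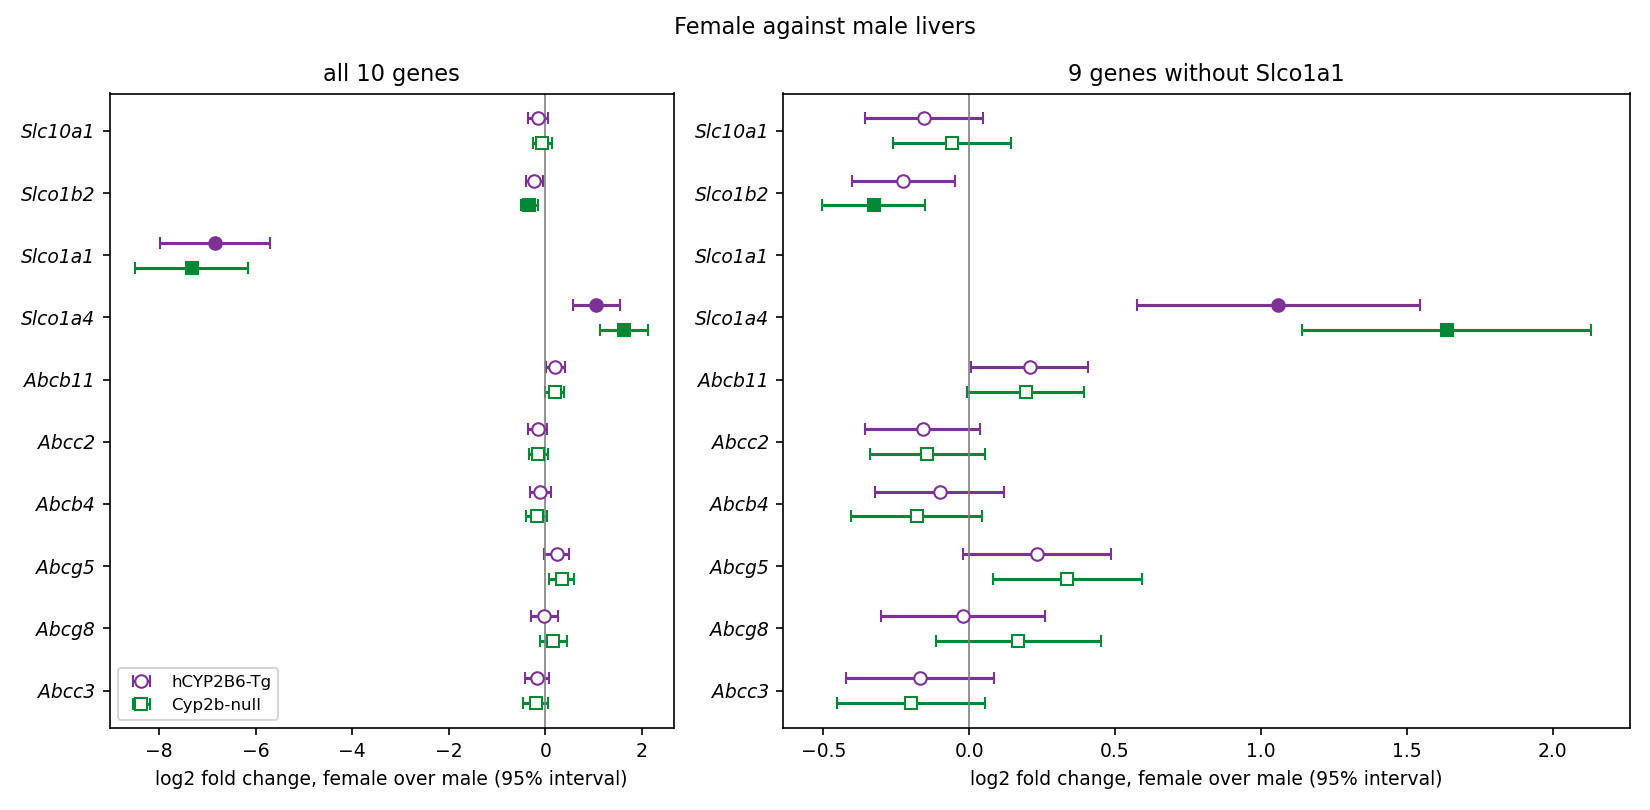
Log2 fold changes of the 10 transporters, female over male, with 95% intervals, in hCYP2B6-Tg (circles) and Cyp2b-null livers (squares); the right panel repeats 9 genes on a wider scale, and filled symbols passed an adjusted p of 0.05. Slco1a1 lies at -6.84 and -7.33 and Slco1a4 at 1.06 and 1.64, and Slco1b2 is filled in Cyp2b-null livers alone.

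The sex differences of Abcb11, Abcc2, Abcb4, Abcg5 and Abcg8, the canalicular exporters of this set, were small. Abcb11 had 655 to 754 CPM in hCYP2B6-Tg females against 556 to 681 CPM in hCYP2B6-Tg males, and 658 to 884 CPM in Cyp2b-null females against 595 to 794 CPM in Cyp2b-null males. In each genotype 3 of 4 females lay above every male. The log2 fold change was 0.21 (95% interval 0.01 to 0.41) in hCYP2B6-Tg and 0.19 (-0.01 to 0.40) in Cyp2b-null livers, with adjusted p-values of 0.197 and 0.269.

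Abcc2, at chr19:43782308-43838332 on the plus strand, varied least in hCYP2B6-Tg females, with 453, 463, 463 and 455 CPM in hCYP2B6-Tg females. The hCYP2B6-Tg males lay higher, at 544, 469, 544 and 492 CPM, without overlap. In Cyp2b-null livers the sexes overlapped, at 441, 416, 522 and 376 CPM in females and 539, 529, 441 and 430 CPM in males. The log2 fold changes were -0.16 (95% interval -0.36 to 0.04, adjusted p = 0.324) in hCYP2B6-Tg and -0.14 (-0.34 to 0.05, adjusted p = 0.434) in Cyp2b-null livers.

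Abcb4, at chr5:8893614-8959226 on the plus strand, moves phosphatidylcholine to the outer leaflet of the canalicular membrane, where it shields cells from bile salts. It had 293, 283, 332 and 275 CPM in hCYP2B6-Tg females, against 280, 308, 384 and 295 CPM in hCYP2B6-Tg males. The Cyp2b-null libraries held 302, 251, 304 and 219 CPM in females, against 302, 290, 340 and 288 CPM in males. The sexes overlapped in both genotypes, with log2 fold changes of -0.10 (95% interval -0.32 to 0.12) and -0.18 (-0.40 to 0.04). Of its 50-base windows, 3.42% also occur in another gene, most often the drug efflux gene Abcb1a.

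Abcc3, at chr11:94343295-94393017 on the minus strand, had 259, 269, 270 and 301 CPM in hCYP2B6-Tg females, against 326, 278, 356 and 274 CPM in hCYP2B6-Tg males. In Cyp2b-null livers it had 312, 247, 274 and 183 CPM in females, against 327, 276, 279 and 283 CPM in males. Cyp2b-null female 5 was the lowest library and hCYP2B6-Tg male 4 the highest, and the sexes overlapped. The log2 fold changes were -0.17 (95% interval -0.42 to 0.08, adjusted p = 0.441) in hCYP2B6-Tg and -0.20 (-0.45 to 0.05, adjusted p = 0.392) in Cyp2b-null livers. Cholangiocytes also express Abcc3, and the cholangiocyte list is given with the cell type markers.

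Abcg5 and Abcg8 encode the 2 subunits of a sterol exporter that secretes cholesterol and plant sterols into bile. They lie on opposite strands of chromosome 17, Abcg5 at chr17:84658174-84683011 on the minus strand and Abcg8 at chr17:84676302-84700333 on the plus strand, and their exons overlap by 82 bases. The counting's strand setting is not given in the sources used, so reads in that overlap could count for either gene. RefSeq's table gives 1 upstream window for Abcg5, chr17:84683012-84683261 (minus strand), and 2 for Abcg8. The Abcg8 window chr17:84682871-84683120 (plus strand), which lies inside the annotated span of Abcg8, shares 109 bases with the Abcg5 window, read on opposite strands. The other, chr17:84676052-84676301 (plus strand), directly before that span, shares 0 bases with it and is not shown. The overlapping windows are shown because 1 stretch of DNA lies before the Abcg5 start and before that inner start of Abcg8, and capitals mark CCAAT, found in the Abcg8 window shown at -175 and -114. None of the 5 motifs was found in the Abcg5 window or in the other Abcg8 window.
Abcg5: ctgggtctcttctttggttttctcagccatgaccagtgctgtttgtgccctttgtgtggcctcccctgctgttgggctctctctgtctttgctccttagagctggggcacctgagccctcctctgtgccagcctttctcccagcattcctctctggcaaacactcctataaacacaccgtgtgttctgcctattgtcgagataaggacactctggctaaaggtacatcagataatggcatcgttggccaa
Abcg8: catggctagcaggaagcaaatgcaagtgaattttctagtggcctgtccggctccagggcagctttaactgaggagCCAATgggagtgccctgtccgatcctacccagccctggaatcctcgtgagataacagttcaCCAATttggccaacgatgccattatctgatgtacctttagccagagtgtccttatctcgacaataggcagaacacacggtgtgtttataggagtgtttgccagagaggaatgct

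Abcg5 had 97.4, 90.1, 96.0 and 85.6 CPM in hCYP2B6-Tg females, against 102, 75.7, 64.5 and 72.9 CPM in hCYP2B6-Tg males. In Cyp2b-null livers it had 99.2, 116, 94.8 and 83.6 CPM in females, against 86.7, 86.5, 67.2 and 70.7 CPM in males. In Cyp2b-null livers 3 of 4 females lay above every male, and in hCYP2B6-Tg livers male 2 was above every female while the other 3 males were below every female. The log2 fold changes were 0.23 (95% interval -0.02 to 0.49, adjusted p = 0.259) in hCYP2B6-Tg and 0.34 (0.08 to 0.59, adjusted p = 0.108) in Cyp2b-null livers. Without hCYP2B6-Tg male 2 the call in hCYP2B6-Tg livers was gained (adjusted p = 0.0403).

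Abcg8 had 101, 96.6, 132 and 99.7 CPM in hCYP2B6-Tg females, against 139, 99.4, 101 and 96.5 CPM in hCYP2B6-Tg males. In Cyp2b-null livers it had 127, 143, 118 and 91.6 CPM in females, against 107, 117, 102 and 99.3 CPM in males. The sexes overlapped, with log2 fold changes of -0.02 (95% interval -0.30 to 0.26) in hCYP2B6-Tg and 0.17 (-0.11 to 0.45) in Cyp2b-null livers.

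The count ratio of Abcg8 to Abcg5 was 1.04 to 1.38 in hCYP2B6-Tg females, 1.10 to 1.28 in Cyp2b-null females, 1.31 to 1.56 in hCYP2B6-Tg males and 1.24 to 1.52 in Cyp2b-null males. On the log2 scale, hCYP2B6-Tg females minus males came to -0.26 and Cyp2b-null females minus males to -0.18, each with an exact two-sided permutation p of 0.114, or 0.229 after Benjamini-Hochberg adjustment over 4 comparisons. For hCYP2B6-Tg minus Cyp2b-null livers the difference was -0.069 in females (exact p = 0.543) and 0.014 in males (exact p = 0.886). With 4 against 4 libraries the exact test cannot go below 0.0286.

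**Figure D5:**
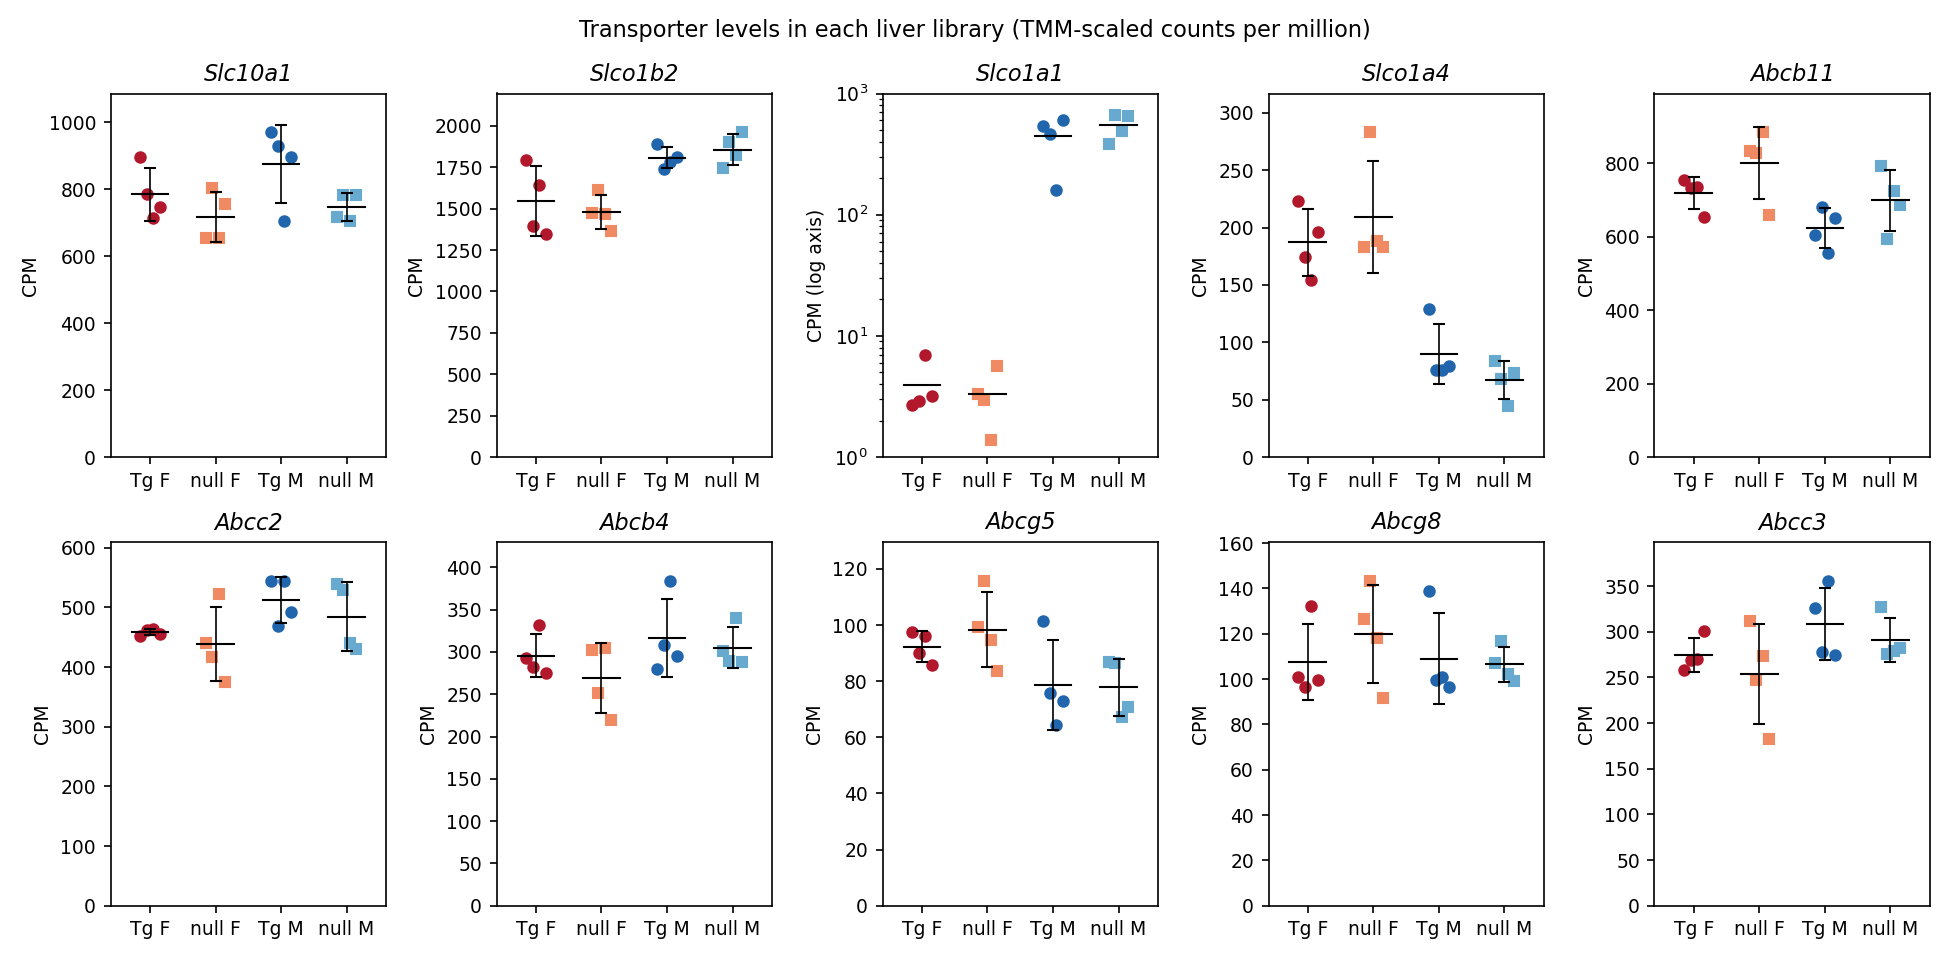
CPM of the 10 transporters in each library, in hCYP2B6-Tg (Tg) females, Cyp2b-null (null) females, hCYP2B6-Tg males and Cyp2b-null males; bars are means and error bars SD over 4 libraries, without SD for Slco1a1, which is on a log axis. Slco1a1 lies at 1.38 to 6.96 CPM in females and 159 to 665 CPM in males, Slco1a4 at 155 to 283 CPM in females and 44.8 to 129 CPM in males, and for the other genes the 8 females overlap the 8 males.

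Over all 16 libraries, the highest library of a transporter other than Slco1a1 and Slco1a4 exceeded the lowest by 1.45-fold (Abcc2) to 1.95-fold (Abcc3). The corresponding factor was 6.32 for Slco1a4 and 481 for Slco1a1.

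By likeness of standardised log2 CPM profiles over the 16 libraries, the genes most like Slco1a1 were Mup20 and Mup21, major urinary protein genes, at root mean square differences of 0.135 and 0.145 SD. Reads of Mup genes may be divided among near-identical copies, so their single values are uncertain. Those most like Slco1a4 were Sytl5 and Hgfac, at 0.243 and 0.276 SD. With each sex centred on its own mean, so that sex itself no longer counted, the nearest genes to Slco1a1 were Urad and Serpina3k (0.444 and 0.477 SD), and those to Slco1a4 were Tmem50a and Ssbp1 (0.396 and 0.502 SD). Without centring, Abcg5 and Abcg8 differed by 0.728 SD, more than Slco1b2 and Slco1a1 (0.601 SD). With centring, Abcg5 and Abcg8 were the pair of members most alike, at 0.592 SD. Even so, Rilp lay nearer to Abcg5 (0.585 SD) and Kmt2b nearer to Abcg8 (0.559 SD). With centring, Abcb4 was nearest to Hsd17b4 (0.358 SD) and Abcc3 to Slc17a2 and Ugt1a1 (0.473 and 0.546 SD). Slc10a1 was then nearest to Psme1 (0.421 SD), Slco1b2 to Kiz (0.585 SD), Abcb11 to Arhgap12 (0.555 SD) and Abcc2 to Spag1 (0.579 SD). Without centring, Abcb4 was nearest to Aldh3a2 (0.381 SD) and Abcc3 to Pi4ka and Htra2 (0.520 and 0.538 SD). These likenesses describe 16 libraries and have no test.

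Related genes gave a wider view of the same pathway. None of the 5 lists of bile acid synthesis enzymes, other hepatobiliary transporters, regulators, canalicular trafficking proteins and conjugating enzymes had a member that passed in a genotype contrast. Counts of tested genes at unadjusted p under 0.05 in males were 3 of 18 synthesis enzymes, 1 of 18 other transporters, 4 of 23 regulators, 0 of 14 trafficking genes and 0 of 16 conjugating enzymes, and in females 3, 0, 1, 0 and 1. Over all genes the share at that p was 7.17% in males and 7.59% in females. Of the regulators, Nr0b2, which encodes the FXR-induced corepressor SHP, had the smallest adjusted p in males. Its level was 25.4 ± 8.48 CPM in hCYP2B6-Tg males, against 59.6 ± 19.3 CPM in their Cyp2b-null counterparts (SD, n = 4 each), a log2 fold change of -1.22 ± 0.27 with an adjusted p of 0.18.

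Cyp7a1, the first and rate-limiting enzyme of the classic bile acid pathway, had the smallest adjusted p of the synthesis enzymes for the difference between the genotype effects of the sexes. Its level was 213 ± 41.1 CPM in hCYP2B6-Tg females, against 129 ± 49.3 CPM in Cyp2b-null females. Among males it was 141 ± 23.7 CPM in hCYP2B6-Tg livers, against 264 ± 106 CPM in Cyp2b-null livers. The difference, female minus male, was 1.63 ± 0.44 and did not pass (adjusted p = 0.36).

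Calls by sex among the related genes stand beside 10.3% of all genes called in hCYP2B6-Tg and 7.52% in Cyp2b-null livers, and beside median log2 fold changes over all genes of 0.016 and 0.0046. Of 18 synthesis enzymes, 1 was higher and 6 were lower in hCYP2B6-Tg females than males, and 3 were higher and 7 lower in Cyp2b-null females, with list medians of -0.18 and -0.27. Scp2, the peroxisomal thiolase of side-chain shortening, stood at 1487 ± 69.6 CPM in hCYP2B6-Tg females against 3623 ± 240 CPM in males, and at 1589 ± 165 CPM in Cyp2b-null females against 3627 ± 257 CPM in males (adjusted p = 7.48e-11 and 3.80e-10). Cyp7b1, the oxysterol hydroxylase of the alternative pathway, stood at 23.5 ± 2.71 CPM in hCYP2B6-Tg females against 92.1 ± 20.9 CPM in males, and at 19.4 ± 4.50 CPM in Cyp2b-null females against 115 ± 20.2 CPM in males (adjusted p = 2.21e-06 and 1.30e-07). Cyp39a1, the 24-hydroxycholesterol hydroxylase, was higher in Cyp2b-null females (51.7 ± 10.2 CPM against 26.3 ± 4.67 CPM in males, adjusted p = 0.000439) and did not pass in hCYP2B6-Tg livers (46.3 ± 7.79 CPM in females against 35.5 ± 6.04 CPM in males, adjusted p = 0.135). The difference between these sex effects of Cyp39a1, hCYP2B6-Tg minus Cyp2b-null, was -0.59 and did not pass (adjusted p = 0.558). Hsd17b4, the bifunctional enzyme of peroxisomal side-chain oxidation, was lower in females, with log2 fold changes of -0.37 ± 0.09 in hCYP2B6-Tg and -0.38 ± 0.09 in Cyp2b-null livers (adjusted p = 0.00841 and 0.00808).

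Of the 18 other transporters tested, 3 were higher and 4 lower in hCYP2B6-Tg females, and 2 were higher and 4 lower in Cyp2b-null females, with list medians of 0.03 and -0.07. Abcg2, a canalicular exporter of sulfates and urate, stood at 28.4 ± 3.02 CPM in hCYP2B6-Tg females against 96.3 ± 16.1 CPM in males, and at 33.4 ± 4.43 CPM in Cyp2b-null females against 92.2 ± 8.34 CPM in males (adjusted p = 1.8e-10 and 4.84e-09). Slco2a1, the prostaglandin carrier, was higher in females, by 0.69 ± 0.11 on the log2 scale in hCYP2B6-Tg and 0.39 ± 0.11 in Cyp2b-null livers (adjusted p = 8.96e-05 and 0.022). Fabp1, the liver fatty acid binding protein, and Ephx1, the microsomal epoxide hydrolase, were lower in females of both genotypes, with log2 fold changes of -0.66 and -0.54 for Fabp1 (adjusted p = 0.00847 and 0.0364) and -0.58 and -0.63 for Ephx1 (adjusted p = 0.0244 and 0.0184) in hCYP2B6-Tg and Cyp2b-null livers. The basolateral bile acid exporters Slc51a and Slc51b, named here for their role, fell below the filter, with 5 and 84 counts over all 16 libraries.

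Of 23 regulators, 4 were higher and 1 lower in hCYP2B6-Tg females, and 3 were higher and 2 lower in Cyp2b-null females, with list medians of 0.09 and 0.16. Cux2, a repressor known for its female-specific expression in liver, averaged 18.1 ± 7.31 CPM in hCYP2B6-Tg females and 35.9 ± 21.9 CPM in Cyp2b-null females. It averaged 0.154 ± 0.109 CPM in hCYP2B6-Tg males and 0.225 ± 0.340 CPM in Cyp2b-null males, means below the limit that a count of 0 allows. Nr1h4, which encodes FXR, was lower in Cyp2b-null females (99.0 ± 3.19 CPM against 133 ± 15.8 CPM in males, adjusted p = 0.00655) and did not pass in hCYP2B6-Tg livers (adjusted p = 0.204). Nr5a2, which encodes the bile acid synthesis regulator LRH-1, was higher in Cyp2b-null females (log2 fold change 0.37, adjusted p = 0.0134) and had 0.28 in hCYP2B6-Tg livers (adjusted p = 0.0615). In hCYP2B6-Tg livers Ahr, the dioxin receptor, was higher in females (0.85, adjusted p = 0.000822) and Ppara, the fatty acid receptor, lower (-0.41, adjusted p = 0.00989). In Cyp2b-null livers Ahr had 0.34 and Ppara -0.29 (adjusted p = 0.194 and 0.0933). The sex effects of Nr1h4, Nr5a2, Ahr and Ppara differed by 0.22, -0.10, 0.50 and -0.12, hCYP2B6-Tg minus Cyp2b-null. None of these differences passed (adjusted p = 0.744, 0.918, 0.592 and 0.889).

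None of 14 trafficking genes passed by sex in edgeR, with 2 in hCYP2B6-Tg and 3 in Cyp2b-null livers at unadjusted p under 0.05, beside 23.5% and 19.9% of all genes, and list medians of 0.06 and 0.15. Those with the smallest p were the kinase gene Stk11 in hCYP2B6-Tg livers (0.23, adjusted p = 0.105) and the scaffold gene Pdzk1 in Cyp2b-null livers (0.20, adjusted p = 0.134). Of 16 conjugating enzymes, 7 were higher and 5 lower in females of each genotype, with list medians of 0.29 and 0.41. Sult2a2, a steroid sulfotransferase gene, had the smallest p of the list, at 455 ± 85.2 CPM in hCYP2B6-Tg females and 495 ± 95.02 CPM in Cyp2b-null females, against 0.0666 ± 0.0787 CPM in hCYP2B6-Tg males and 0.0688 ± 0.138 CPM in Cyp2b-null males (adjusted p = 4.93e-18 and 5.39e-18). Sult2a1, a sulfotransferase of bile acids and steroids, averaged 473 ± 90.5 CPM in hCYP2B6-Tg females and 476 ± 139 CPM in Cyp2b-null females. It had 0.2499 ± 0.244 CPM in hCYP2B6-Tg males and 0 CPM in all 4 Cyp2b-null males. The male means of Sult2a2 and Sult2a1 lie below the limit that a count of 0 allows. Reads of these 2 genes may be shared among near-identical Sult2a copies. Ugt2b1, a glucuronosyltransferase, stood at 249.5 ± 16.3 CPM in hCYP2B6-Tg females against 441 ± 72.8 CPM in males, and at 276 ± 19.6 CPM in Cyp2b-null females against 482 ± 47.2 CPM in males (adjusted p = 5.10e-06 and 6.80e-06). Sult1a1, a phenol sulfotransferase, was higher in females, by 0.48 in hCYP2B6-Tg and 0.82 in Cyp2b-null livers on the log2 scale (adjusted p = 0.00182 and 2.58e-06).

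The lists of cell type markers had no member that passed in a genotype contrast. Their counts by sex stand beside the same 10.3% and 7.52% of all genes. Of the 4 tested cholangiocyte markers, 1 passed by sex in each genotype, Slc10a2, which encodes the apical bile acid carrier of bile ducts and ileum. Slc10a2 stood at 30.9 ± 12.5 CPM in hCYP2B6-Tg females against 80.2 ± 14.2 CPM in males, and at 32.4 ± 13.6 CPM in Cyp2b-null females against 77.8 ± 14.4 CPM in males. The 8 cholangiocyte markers summed to 54.8 to 68.5 CPM in hCYP2B6-Tg females against 102 to 123 CPM in males. In Cyp2b-null livers they summed to 54.7 to 106 CPM in females against 77.6 to 210 CPM in males. Slc10a2 is among these 8 markers, so the sums hold its sex difference, and sums without it were not taken. Macrophage markers were higher in females for 1 of 6 in hCYP2B6-Tg and 2 of 6 in Cyp2b-null livers, with sums of 225 to 317 CPM in hCYP2B6-Tg females against 175 to 213 CPM in males and of 226 to 376 CPM in Cyp2b-null females against 156 to 225 CPM in males. Of the 8 periportal markers, 3 were higher and 1 lower in Cyp2b-null females, and 1 was lower in hCYP2B6-Tg females. Of the 8 pericentral markers, 1 was lower in Cyp2b-null females and 1 higher in hCYP2B6-Tg females. Their part in the sex differences of the transporters was not tested.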

How the data were processed

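The authors deposited raw read counts, as whole numbers with 1 line per gene symbol and 1 column per library, with genotype and sex taken here from the library titles. Per the submitters' processing notes, FastQC, Trimmomatic, GSNAP, Subread and edgeR were used with build GRCm38.p6; versions, strand setting and the treatment of reads that map to several places were not found in the labels. Genes that share sequence or overlap another transcript are therefore uncertain.

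Here, filterByExpr (edgeR 4.0.16, R 4.3.3) kept 13470 of 41585 genes, libraries were scaled by TMM, and CPM used the scaled totals. One fit of all 16 libraries in 4 groups was tested with edgeR's quasi-likelihood F test (robust, two-sided), Benjamini-Hochberg adjusted over all tested genes, threshold 0.05. The contrasts set hCYP2B6-Tg livers against Cyp2b-null livers in each sex, with their average and difference, and female against male in each genotype and averaged. Standard errors of log2 fold changes were not taken from the fit. They were back-calculated as the size of the change divided by the square root of F. The intervals on log2 fold changes and folds were built from these errors for each gene alone, without adjustment for the number of genes. Both are approximate, most of all for large changes with few counts in a group. The code was checked on simulated counts. No 2 libraries of a group looked like copies (chi-square per degree of freedom 6.53 to 19.7 over genes with at least 20 counts).

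All 10 members are named. From each related list the 3 genes with the smallest adjusted p past 0.05 were named for each genotype's comparison of females with males, or the gene with the smallest p where none passed. Likeness took the 2 non-members with the smallest root mean square difference of log2 CPM profiles (prior count 2). The members and lists were chosen with earlier results of these data known. Alternatives were other scalings, filters, DESeq2 1.42.0, limma 3.58.1 voom, variance settings, a replicate block and leaving libraries out. Upstream sequences come from RefSeq's windows on GRCm38.p6, matched by symbol for 9 of the 10 members. Limits and intervals on counts cover counting error only, and depth was 5584587 to 9672708 counts per library.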

Additional observations from a re-analysis of the deposited data

Results flagged for a closer look

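In 6 of the 40 sets of 4 libraries compared (each transporter in each group), 1 library lay far from the other 3 by Dixon's test. Its chance rate of about 1 in 20 holds for independent sets of normally distributed values. These sets share the same libraries, so 6 of 40 cannot be weighed against that rate. Slco1a1 was 6.96 CPM in hCYP2B6-Tg female 4, against 2.69 to 3.20 CPM in the other hCYP2B6-Tg females. Slco1a4 was 283 CPM in Cyp2b-null female 3, against 183 to 188 CPM in the others of its group. The same gene was 129 CPM in hCYP2B6-Tg male 2, against 75.9 to 79.1 CPM in the other hCYP2B6-Tg males.

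Abcg8 was 132 CPM in hCYP2B6-Tg female 4, against 96.6 to 101 CPM in the other hCYP2B6-Tg females, and 139 CPM in hCYP2B6-Tg male 2, against 96.5 to 101 CPM in the other hCYP2B6-Tg males. Abcc3 was 327 CPM in Cyp2b-null male 1, against 276 to 283 CPM in the other Cyp2b-null males. Thus 4 of the 6 values came from hCYP2B6-Tg female 4 and hCYP2B6-Tg male 2. In hCYP2B6-Tg male 2, Abcg5 was also the highest of its group, at 102 CPM against 64.5 to 75.7 CPM.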

How the results depend on the processing

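Each count of called transporters was recomputed under 29 alternatives (28 for the averages and the difference), 16 of which left out 1 library. No transporter passed for hCYP2B6-Tg against Cyp2b-null (females, males, average and difference) in any alternative. For females against males in each genotype the counts stayed within 1.5 times their value. With so few calls, that limit does not flag 1 gene gained in hCYP2B6-Tg livers, or 1 gained or lost in Cyp2b-null livers. Calls of Slco1b2 and Abcg5 were gained or lost in this way. No called direction reversed. The average over genotypes of females against males, with 5 calls, gave 3 to 5 calls when 1 library was left out, and 3 without Cyp2b-null female 1, Cyp2b-null female 3 and hCYP2B6-Tg male 4, libraries doubted in an earlier analysis. Abcg5 then had an adjusted p of 0.223 and Abcb11 of 0.235; Abcb11 passed in 10 and Abcg5 in 21 of 28 alternatives, and the cause was not tested.

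Same-numbered libraries did not vary together (12 pairs, r from -0.107 to 0.122, 1 over 0.1), so numbers were not taken as pairs. With the replicate block 3 genes still passed between Cyp2b-null females and males, but Slco1b2 (adjusted p = 0.05) was lost and Abcg5 (0.0266) gained. Limma voom with quality weights gained Slco1b2 in hCYP2B6-Tg livers (0.0328). In the average over genotypes, Abcc2 was gained without Cyp2b-null female 4 (0.0352) and Abcc3 without Cyp2b-null female 1 (0.0409). The doubted libraries also turned the estimates of Abcg5 and Abcg8 between the genotypes in females (0.05 and 0.03 without them), neither passing. Depth limits mainly Slco1a1 in females, with 12 to 54 counts per library.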
